A study of Mus musculus with 2 samples.

Results

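The genes described here are 40 cell cycle genes, taken by symbol from the 32285 genes that both libraries list. They fall into an S phase group of 16 genes, a G2/M group of 19 genes, and 5 abundant genes (Stmn1, Tubb5, Tuba1b, Hmgb2 and H2afz) that dividing cells carry more of but that resting cells also express. The cells are regulatory T cells (Tregs, CD4 T cells that express Foxp3 and restrain immune responses) sorted from mouse spleen and read with a droplet single-cell kit that counts the 3′ ends of RNA molecules as UMIs. The CD25KO library came from CD25FL/FL-tdTomato+/+-Foxp3eGFPCretERT2+/+ mice, in which Foxp3-driven Cre deletes the floxed Il2ra gene (CD25, the high-affinity chain of the interleukin-2 receptor) once tamoxifen is given. The CD25WT library came from CD25WT/WT-tdTomato+/+-Foxp3eGFPCretERT2+/+ mice, which carry the same Cre and reporter but an intact Il2ra. Both received tamoxifen at 2 mg/kg for 5 days, and 2 spleens per group were pooled at day 10. Cells were sorted as live CD4+ GFP+ tdTomato+ in both groups, and CD25KO cells were gated on low CD25 as well. That gate and the genotype cannot be told apart. With 1 library per group there is no test between groups. Every interval below is a 95% interval that covers counting error only.

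Cells about to copy their DNA load the MCM helicase onto replication origins, make nucleotides, and switch on a set of genes driven by E2F transcription factors. After replication, a second set of genes comes on, with cyclins A and B, their kinase Cdk1, mitotic kinases, centromere proteins and spindle proteins, and most of these proteins are destroyed as mitosis ends. Mki67 encodes the Ki-67 protein, which coats mitotic chromosomes and is the usual mark of cycling cells. In mouse spleen a small share of Tregs divides at any time, and interleukin-2 is among the signals known to drive Treg expansion and survival.

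After removing barcodes with fewer than 500 genes or more than 10% mitochondrial UMIs, 6952 of 7530 CD25KO and 6110 of 6620 CD25WT barcodes were kept, with 35726778 and 35436738 UMIs. The median depth was 4150 UMIs per cell in CD25KO and 5229 in CD25WT, and ribosomal protein genes took 29.0% and 36.9% of UMIs. Il2ra itself stood at 32.4 counts per 1000000 UMIs (CPM) in CD25KO and 125 CPM in CD25WT, and Foxp3 at 21.6 and 34.1 CPM. The T cell genes Cd3e and Cd4 were high in both libraries, Cd3e at 891 CPM in CD25KO and 657 CPM in CD25WT. The libraries share 107 barcodes, 26 of them kept in both, and 40 kept CD25KO and 35 kept CD25WT cells carry one of them.

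Over all kept cells, the G2/M genes were the most shifted of the 40. Their median log2 ratio of CD25KO over CD25WT was 1.76 over the 17 genes whose mean reached 5 CPM, and it was also 1.76 when Aurka and Bub1, which lie below that level, were included. The S phase genes had a median of 0.54 over all 16, the abundant genes 0.82, and all 8743 genes at that level 0.21. A ratio of 1.5-fold or more in favour of CD25KO was reached by 17 of 17 G2/M genes, 7 of 16 S phase genes and 3 of 5 abundant genes, against 12% of all genes. A 2-fold ratio was reached by 17 of 17 G2/M genes, 4 S phase genes, 1 abundant gene and 4.37% of all genes. In the other direction, 1.96% of all genes and none of the 40 passed 1.5-fold. Ccnb1, Plk1, Aurkb, Bub1b and Ccne2 passed the 5 CPM level only through CD25KO, since each was under 5 CPM in CD25WT. Without the cells whose barcode is in both libraries the medians were 1.72 for G2/M and 0.45 for S phase genes. Summed CPM mix the number of cycling cells with the RNA in each, and these are taken apart further on.

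**Figure D1:**
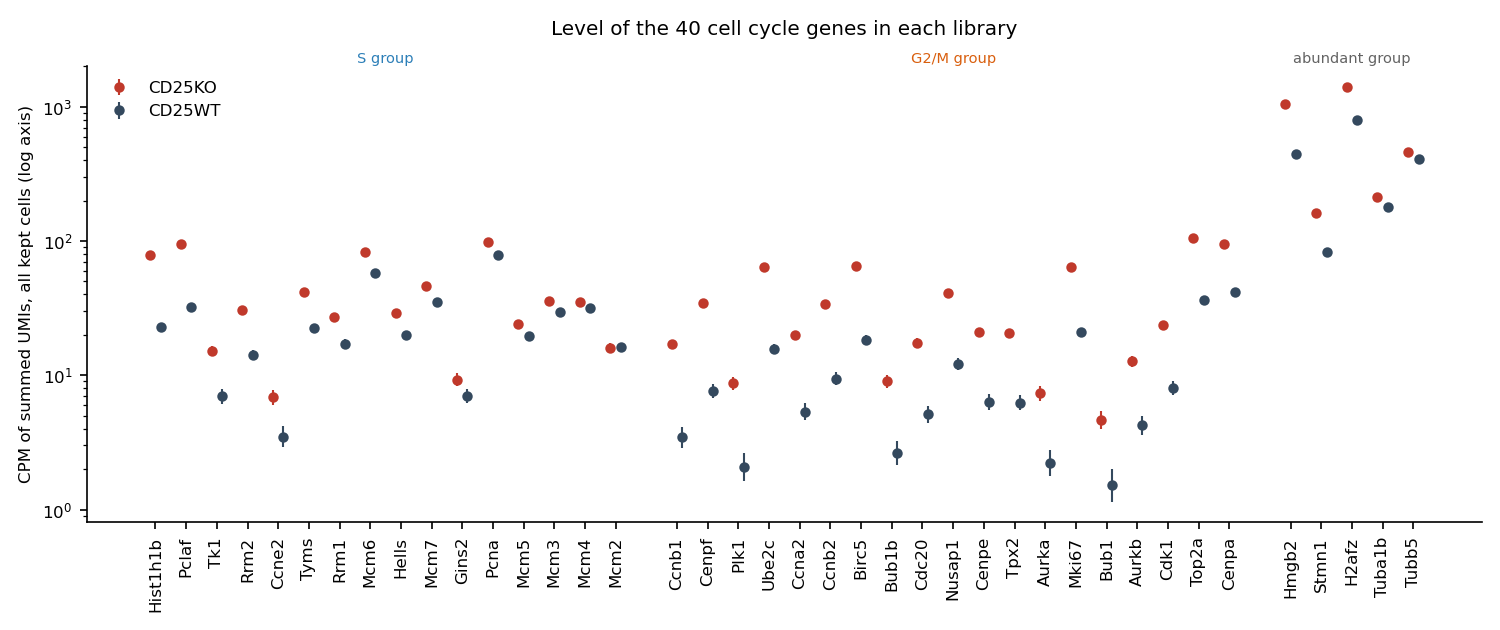
Level of each of the 40 genes in CD25KO and CD25WT, in CPM of summed UMIs over all kept cells on a log axis, by group, with 95% Poisson intervals as bars. Every G2/M gene lies higher in CD25KO, whereas several MCM genes nearly coincide: Mcm2 stood at 15.9 CPM in CD25KO and 16.1 CPM in CD25WT.

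Among the G2/M genes, Mki67 stood at 64.5 CPM in CD25KO and 20.9 CPM in CD25WT, a log2 ratio of 1.63 (1.51 to 1.75). Top2a, the topoisomerase that untangles sister chromatids, had 106 CPM in CD25KO and 36.3 CPM in CD25WT (log2 1.55, 1.46 to 1.64). The largest ratio was that of Ccnb1, cyclin B1, with 17.0 CPM in CD25KO and 3.44 CPM in CD25WT (log2 2.30, 2.02 to 2.60). Cyclin B1 activates Cdk1 at mitotic entry, and Cdk1 itself stood at 23.7 and 8.10 CPM (log2 1.55). The other cyclins lay between them, Ccna2 at log2 1.90 and Ccnb2 at 1.85. Of the mitotic kinases, Plk1 had 8.70 CPM in CD25KO and 2.09 CPM in CD25WT (log2 2.06), and Aurkb, the kinase of the chromosomal passenger complex, 12.7 and 4.26 CPM (log2 1.58). Birc5 (survivin), a partner of Aurkb in that complex, had 64.8 CPM in CD25KO and 18.4 CPM in CD25WT (log2 1.82). The spindle checkpoint genes Bub1 and Bub1b were rare transcripts, with 4.67 and 9.04 CPM in CD25KO and 1.52 and 2.65 CPM in CD25WT. Ube2c and Cdc20 serve the anaphase-promoting complex, the ubiquitin ligase that ends mitosis. Ube2c had 64.4 CPM in CD25KO and 15.7 CPM in CD25WT (log2 2.03, 1.90 to 2.17), and Cdc20 17.4 and 5.14 CPM (log2 1.76).

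The centromere genes spanned nearly the whole range of the G2/M group. Cenpf, a kinetochore protein that peaks in G2 and mitosis, had 34.5 CPM in CD25KO and 7.62 CPM in CD25WT (log2 2.18, 1.99 to 2.37). Cenpe, a kinetochore motor protein, had a log2 ratio of 1.74. Cenpa, the histone H3 variant that marks centromeres, had the smallest ratio of the group, with 95.8 CPM in CD25KO and 41.7 CPM in CD25WT (log2 1.20, 1.11 to 1.29). It was also the most widely detected of these 3 genes, with a UMI in 20.6% of CD25KO cells and 15.8% of CD25WT cells. The spindle genes Nusap1 and Tpx2, which bind and organise microtubules, had log2 ratios of 1.76 and 1.73.

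The S phase genes did not move as one set. The 6 subunits of the MCM helicase, which unwinds DNA ahead of the replication fork, ranged from a log2 ratio of -0.02 (-0.19 to 0.15) for Mcm2 to 0.54 (0.46 to 0.62) for Mcm6. Mcm2 stood at 15.9 CPM in CD25KO and 16.1 CPM in CD25WT, and Mcm6, the most abundant subunit, at 83.3 and 57.4 CPM. Mcm4 had a log2 ratio of 0.14 (0.03 to 0.26), under the median of all genes, and it fell below 0 with TMM scaling, with median-of-ratios scaling and with a total that leaves out ribosomal and mitochondrial genes. Pcna, the sliding clamp of the replication fork, had 98.7 CPM in CD25KO and 78.6 CPM in CD25WT (log2 0.33, 0.26 to 0.40). Gins2, a subunit of the complex that joins MCM in the active helicase, had a log2 ratio of 0.40, and the chromatin remodeller gene Hells 0.54. The MCM, Pcna and Gins2 ratios thus all lay at or under 0.54.

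The nucleotide enzymes were higher than the helicase. Rrm2, the regulated small subunit of ribonucleotide reductase, had 30.9 CPM in CD25KO and 14.2 CPM in CD25WT (log2 1.12, 0.97 to 1.27). Its large subunit Rrm1 had 27.1 and 17.2 CPM (log2 0.65, 0.51 to 0.80). Tyms, which makes thymidylate, had 42.0 CPM in CD25KO and 22.5 CPM in CD25WT (log2 0.90), and Tk1, the thymidine salvage kinase, 15.2 and 6.97 CPM (log2 1.13). Ccne2, cyclin E2, which with Cdk2 starts replication, had a log2 ratio of 0.98 at 6.89 CPM in CD25KO and 3.50 CPM in CD25WT. The S phase genes with the largest ratios were Pclaf and Hist1h1b, and their ratios lay within the range of the G2/M genes. Pclaf, a small protein that binds PCNA, had 94.3 CPM in CD25KO and 32.2 CPM in CD25WT (log2 1.55, 1.45 to 1.65). Hist1h1b, a linker histone made during replication, had 79.4 CPM in CD25KO and 23.1 CPM in CD25WT (log2 1.78, 1.67 to 1.90). Replication histone messages mostly lack the poly(A) tail that this kit captures, so their UMIs are a part of the transcripts.

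Of the abundant genes, Hmgb2, a chromatin protein of dividing and activated cells, had 1044 CPM in CD25KO and 449 CPM in CD25WT (log2 1.22, 1.19 to 1.25). H2afz, the histone variant H2A.Z, had 1404 CPM in CD25KO and 793 CPM in CD25WT (log2 0.82). Stmn1, stathmin, which destabilises microtubules, had 160 and 83.0 CPM (log2 0.95). The tubulin genes barely differed, Tubb5 at 457 CPM in CD25KO and 407 CPM in CD25WT (log2 0.17) and Tuba1b at a log2 ratio of 0.25. The ratio of Tubb5 fell below 0 under the same 3 scalings as that of Mcm4. Tubulin and histone genes have near-identical copies, and how shared reads were assigned could bear on their counts.

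**Figure D2:**
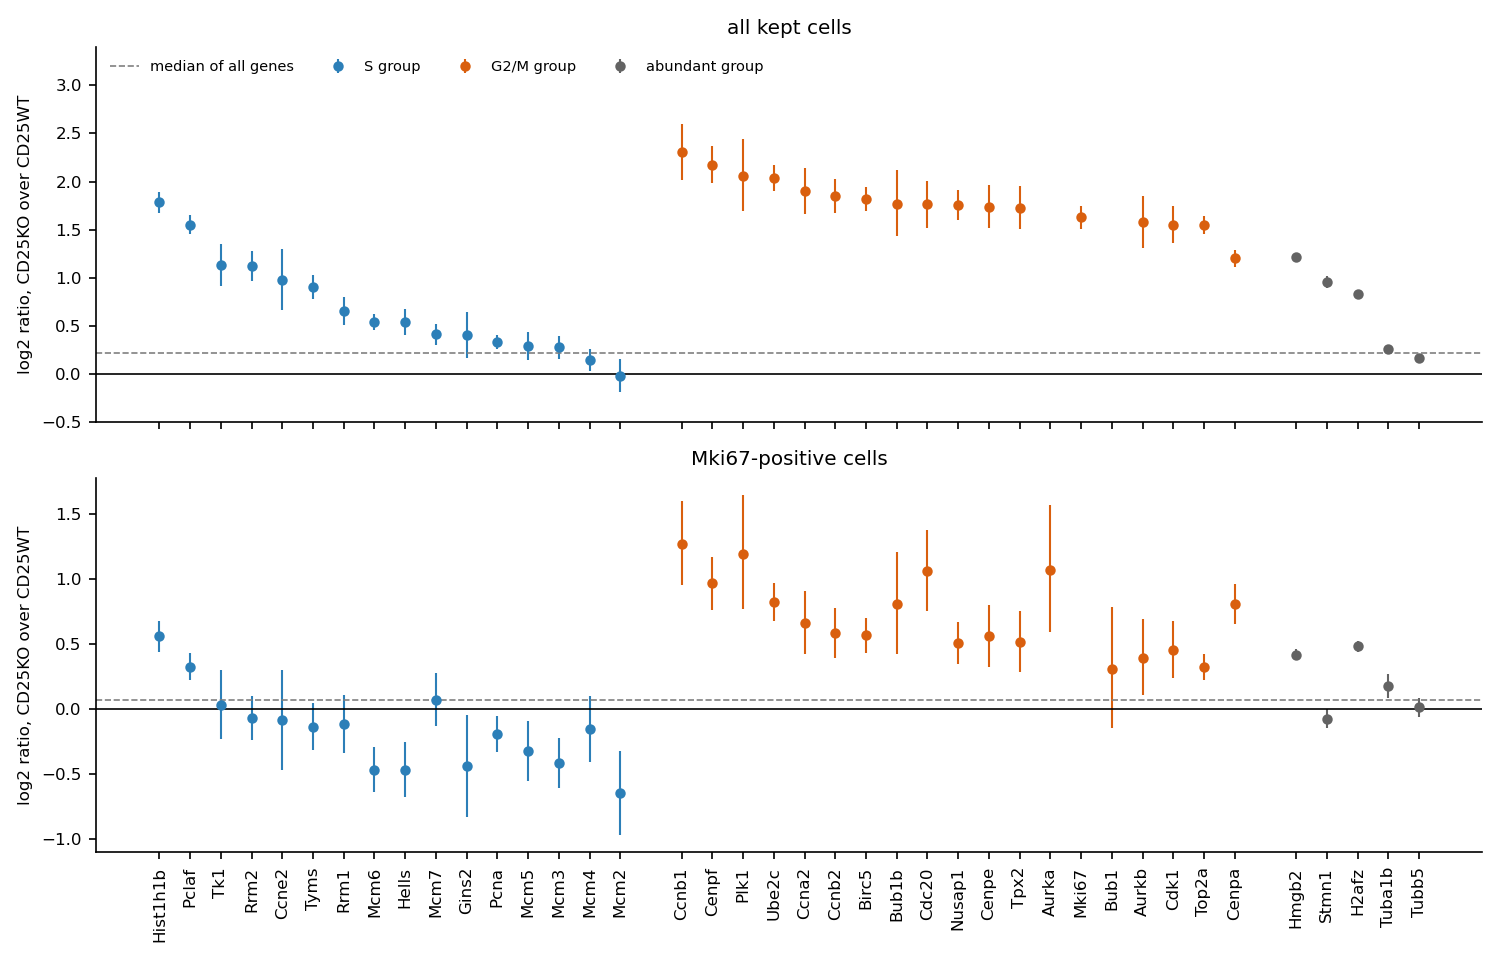
Log2 ratio of CD25KO over CD25WT for each gene with its 95% counting interval, over all kept cells (top) and over cells with a Mki67 UMI (bottom), with the median of all genes as a dashed line. Most G2/M genes lie above most S phase genes in both panels, but Pclaf and Hist1h1b lie among the G2/M genes, and in the lower panel the S phase genes run from -0.65 to 0.56.

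The DNA just before the start sites differs between the groups in the letters it holds. Short promoters were read from RefSeq on GRCm38.p6 for the 31 of 40 genes that the table holds. The motifs searched on both strands, in the 250 bases before each start, were CCAAT (bound by NF-Y), TTTGAA (the CHR element of late cell cycle genes), and 4 forms of the E2F site (TTTGGCGC, TTTCCCGC, TTTCGCGC and TTTGCCGC), which can overlap each other. These 5 stretches of 130 bases, from 3 G2/M genes, the S phase gene Mcm6 and the abundant gene Hmgb2, are shown as examples that hold such motifs. The levels of these genes are given above. Capitals mark the motifs, and each stretch reads 5′ to 3′ on the gene's strand.
Mki67, chr7:135716380-135716509, minus strand: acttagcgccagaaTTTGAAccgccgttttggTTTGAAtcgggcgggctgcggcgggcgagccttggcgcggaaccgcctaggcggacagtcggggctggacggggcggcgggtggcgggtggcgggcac
Top2a, chr11:99024190-99024319, minus strand: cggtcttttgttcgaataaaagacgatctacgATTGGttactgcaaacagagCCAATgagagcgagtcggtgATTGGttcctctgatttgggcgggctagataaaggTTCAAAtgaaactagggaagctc
Cdc20, chr4:118437353-118437482, minus strand: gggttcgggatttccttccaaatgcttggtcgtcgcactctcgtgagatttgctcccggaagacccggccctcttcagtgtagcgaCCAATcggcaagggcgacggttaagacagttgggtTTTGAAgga
Mcm6, chr1:128359706-128359835, minus strand: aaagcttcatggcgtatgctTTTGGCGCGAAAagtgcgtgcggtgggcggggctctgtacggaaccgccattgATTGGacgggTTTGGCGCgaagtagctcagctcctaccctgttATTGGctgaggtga
Hmgb2, chr8:57511713-57511842, plus strand: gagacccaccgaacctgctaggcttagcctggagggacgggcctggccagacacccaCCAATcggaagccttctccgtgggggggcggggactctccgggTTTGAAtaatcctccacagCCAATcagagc
TTTGAA was present before 6 of 16 G2/M genes (37.5%), 1 of 12 S phase genes (8.33%) and 18.3% of all 27025 genes in the table. An E2F form was present before 4 of 12 S phase genes (33.3%), 1 of 16 G2/M genes (6.25%) and 2.16% of all genes. CCAAT was common before both, at 14 of 16 G2/M genes and 9 of 12 S phase genes, against 37.5% of all genes. In the further lists of both phases described below, TTTGAA was present before 16 of 42 G2/M genes (38.1%) and 6 of 27 S phase genes (22.2%). An S phase share under that of all genes was thus not seen there. An E2F form was present before 7 of 27 further S phase genes (25.9%) and 2 of 42 further G2/M genes (4.76%). A match is a run of letters and not a measured binding site, and no factor binding was measured here.

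Mki67-positive cells, those with at least 1 Mki67 UMI, numbered 455 in CD25KO and 185 in CD25WT. They held 14.4% of the UMIs of CD25KO and 5.90% of those of CD25WT, and they were deeper than the other cells, with a median of 9314 UMIs in CD25KO and 8724 in CD25WT against 4030 and 5176 in Mki67-negative cells. The part of depth in what separates these cells was not tested. In both libraries G2/M UMIs sat mainly in them. For the 18 G2/M genes other than Mki67, the median share of a gene's UMIs found in Mki67-positive cells was 90.2% in CD25KO and 82.5% in CD25WT. For the S phase genes it was 52.0% and 36.9%, and for the abundant genes 45.8% and 19.9%.

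Single genes departed from their group. Ccna2 and Bub1 were nearly confined to Mki67-positive cells, with 96.4% of the UMIs of each there in CD25KO and 93.2% and 98.1% in CD25WT. Cenpa was the G2/M gene least tied to them, with 54.9% of its UMIs there in CD25KO and 29.7% in CD25WT. In the S phase group the highest shares were those of Hist1h1b, 95.1% in CD25KO and 91.3% in CD25WT. The lowest were those of Mcm6 in CD25KO (25.5%, against 21.1% in CD25WT) and of Mcm4 in CD25WT (16.4%). Aurka, Cdc20, Cenpa and Plk1 showed the widest gaps between libraries among the G2/M genes. Plk1 had 93.9% of its UMIs in Mki67-positive cells of CD25KO and 70.3% in those of CD25WT, and Cdc20 87.1% and 58.2%. These shares also depend on how many UMIs Mki67-positive cells hold, 14.4% in CD25KO and 5.90% in CD25WT. The CPM inside over outside these cells was 7.25-fold in CD25KO and 6.72-fold in CD25WT for Cenpa, and 91.7-fold and 37.7-fold for Plk1. For every S phase gene and most G2/M genes, such as Top2a (26.3-fold and 58.1-fold), that fold was higher in CD25WT.

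**Figure D3:**
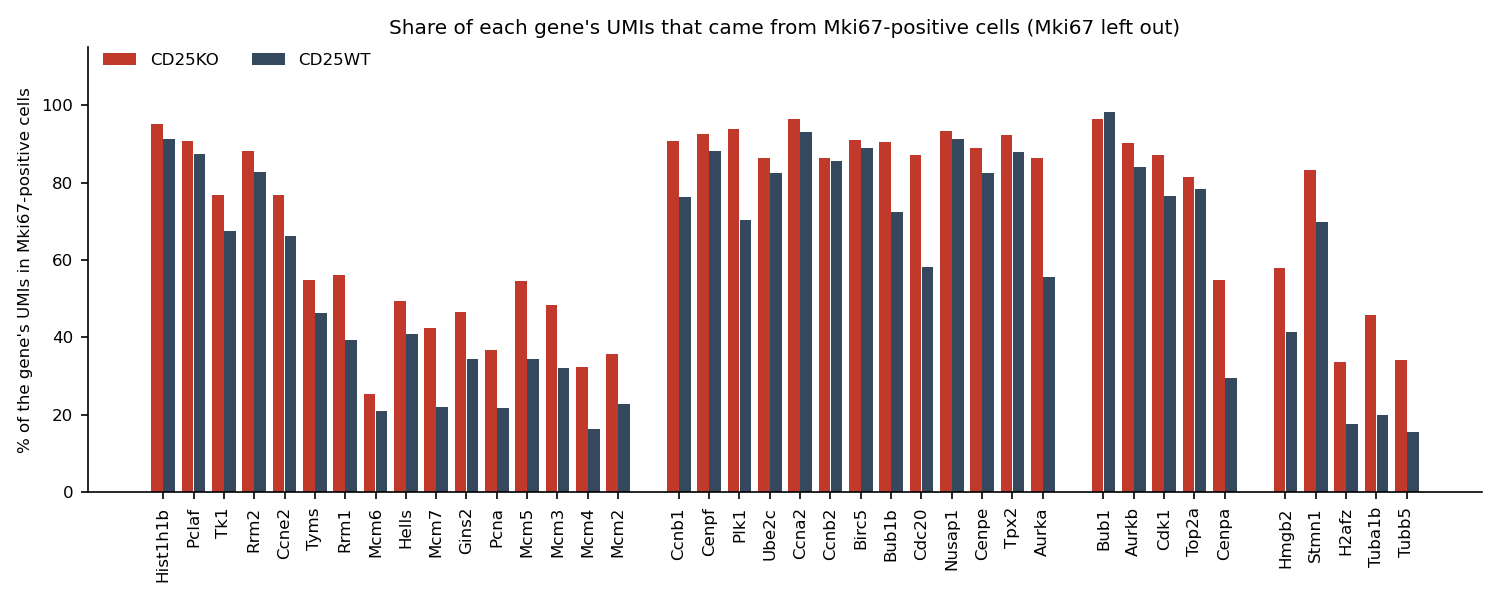
Percentage of each gene's UMIs that lies in Mki67-positive cells, for CD25KO and CD25WT. Most G2/M genes lie above 80% in CD25KO, while Mcm6, at 25.5% in CD25KO and 21.1% in CD25WT, is found mainly outside.

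Inside Mki67-positive cells the difference was narrower and the phases parted. The S phase genes had a median log2 ratio of -0.15 and the 18 G2/M genes 0.62, beside 0.07 for all 8876 genes. Past 1.5-fold, none of the 16 S phase genes was higher in CD25KO and 1 was lower, against 9 of 18 G2/M genes higher and none lower. Of all genes in these cells, 7.84% were higher by that measure and 5.78% lower. Summed, S phase genes stood at 2693 CPM in CD25KO and 2673 CPM in CD25WT (log2 0.01, -0.03 to 0.06), and G2/M genes without Mki67 at 3485 and 2258 CPM (log2 0.63, 0.58 to 0.67). Without the cells of shared barcodes the medians were -0.24 for S phase and 0.75 for G2/M genes. G2/M genes made up 56.4% of the S and G2/M UMIs of these cells in CD25KO and 45.8% in CD25WT.

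The helicase genes were among the lower ones. Mcm2 stood at 39.6 CPM in Mki67-positive CD25KO cells and 62.2 CPM in Mki67-positive CD25WT cells (log2 -0.65, -0.98 to -0.32), and its ratio was -1.18 with cells thinned to 2000 UMIs. Mcm6 had 148 and 205 CPM (log2 -0.47, -0.64 to -0.30), Mcm3 a log2 ratio of -0.42, and Mcm5 -0.33. Mcm7 alone of the 6 subunits lay above 0, at 138 CPM in CD25KO and 131 CPM in CD25WT (log2 0.07). Pcna had 252 CPM in CD25KO and 289 CPM in CD25WT (log2 -0.19, -0.33 to -0.05), Hells a log2 ratio of -0.47 and Gins2 -0.44. The nucleotide enzymes were nearly equal, with log2 ratios of -0.14 for Tyms, -0.12 for Rrm1, -0.07 for Rrm2 and 0.03 for Tk1. Pclaf and Hist1h1b again stood with the late genes. Pclaf had 596 CPM in Mki67-positive CD25KO cells and 477 CPM in Mki67-positive CD25WT cells (log2 0.32, 0.22 to 0.43), and Hist1h1b 526 and 357 CPM (log2 0.56, 0.44 to 0.68).

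The largest ratio inside Mki67-positive cells was again that of cyclin B1. Ccnb1 had 107 CPM in CD25KO and 44.5 CPM in CD25WT (log2 1.27, 0.95 to 1.60), with a UMI in 29.9% and 16.8% of these cells. Plk1 had 56.9 and 24.9 CPM (log2 1.20, 0.77 to 1.65), Aurka, the kinase of the spindle poles, 44.1 and 21.0 CPM (log2 1.07), and Cdc20 106 and 50.7 CPM (log2 1.06). With cells thinned to 2000 UMIs the ratio of Ccnb1 was 0.70 and that of Plk1 0.30, while those of Cdc20 and Cenpf moved little. Cenpf had 222 CPM in CD25KO and 114 CPM in CD25WT (log2 0.97, 0.76 to 1.17). Other genes of the group differed less. Top2a had 603 CPM in CD25KO and 482 CPM in CD25WT (log2 0.32) and was detected in 43.7% and 43.2% of Mki67-positive cells. Cdk1 had a log2 ratio of 0.45, Ccnb2 of 0.58, Ccna2 of 0.66, and Bub1 of 0.31 with an interval of -0.15 to 0.79. Of the abundant genes, Hmgb2 had 4214 CPM in CD25KO and 3154 CPM in CD25WT (log2 0.42), while Stmn1 and Tubb5 had log2 ratios of -0.08 and 0.01.

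These values rest on few cells. At least 50% of the S and G2/M UMIs of Mki67-positive cells came from 53 CD25KO cells and 21 CD25WT cells, and the single richest cell gave 1.73% and 3.17%. Of the Mki67-positive cells, 238 in CD25KO and 95 in CD25WT had a single Mki67 UMI and a median of 2 other members detected in both libraries, beside 1 in Mki67-negative cells. Those with at least 5 Mki67 UMIs numbered 127 in CD25KO and 45 in CD25WT and had a median of 27 other members detected in both. The red blood cell markers were high in these cells of CD25WT only. The 7 listed erythroid genes summed to 1407 CPM in Mki67-positive CD25KO cells and 20165 CPM in Mki67-positive CD25WT cells. Of these genes, 6 and 7 were detected. In Mki67-negative cells they summed to 2525 CPM in CD25KO and 3310 CPM in CD25WT. Without the 5 CD25KO and 13 CD25WT Mki67-positive cells of other lineages, Hbb-bs stood at 40.8 CPM in CD25KO and 63.2 CPM in CD25WT. The G2/M sum was then 3509 CPM in CD25KO and 2188 CPM in CD25WT (log2 0.68), and the S phase sum 2711 and 2707 CPM.

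Treg states were taken from clusters of the Mki67-negative cells, made without cell cycle genes, and each Mki67-positive cell was given the cluster of most of its 15 nearest Mki67-negative cells. Clusters were numbered c0 to c12 and named from marker genes by a rule set after the data were seen. Effector-like cells, c6 (led by Ccl5 and Lilrb4a) and c7 (led by Lgals3, S100a4 and S100a6), made up 30.9% of CD25KO and 5.20% of CD25WT cells. Central-like cells, c1 and c2 (Igfbp4, Satb1), made up 7.22% of CD25KO and 46.3% of CD25WT cells. Follicular regulatory-like cells (c3) made up 16.0% and 6.04%, recently stimulated-like cells (c4 and c11) 13.4% and 7.94%, and clusters left unnamed 28.3% and 29.5%. The low-CD25 gate, used for CD25KO cells and not for CD25WT cells, could shape these shares, and its part was not tested.

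Mki67 was detected in 6.54% of CD25KO cells (5.97% to 7.15%) and 3.03% of CD25WT cells (2.61% to 3.49%). With each cell thinned to 2000 UMIs the shares were 3.28% and 1.30%, and without the cells of shared barcodes 6.32% and 2.90%. The cluster richest in Mki67-positive cells with at least 100 cells in each library was c7, with 23.9% of CD25KO cells (21.3% to 26.6%) and 24.5% of CD25WT cells (18.6% to 31.1%). In c6 the shares were 5.75% (4.47% to 7.26%) in CD25KO and 5.74% (2.34% to 11.5%, 7 of 122 cells) in CD25WT. Over c6 and c7 together the shares were 14.2% in CD25KO and 17.3% in CD25WT, and under other clusterings, which draw the state differently, they ran from 6.56% to 14.7% in CD25KO and from 5.49% to 18.4% in CD25WT. Cluster c7 held 14.3% of CD25KO and 3.21% of CD25WT cells, and 52.3% and 25.9% of the Mki67-positive cells. Counting only cells with 5 or more Mki67 UMIs, the shares in c7 were 10.0% in CD25KO and 9.69% in CD25WT. In c6 they were then 0.26% (3 of 1148 cells) in CD25KO and 0 of 122 cells in CD25WT, which allows a share of up to 2.46%.

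The other named states had lower shares of Mki67-positive cells than effector-like cells as a whole. In c3, Mki67 was detected in 6.58% of CD25KO and 5.42% of CD25WT cells, in recently stimulated-like cells in 4.41% and 5.15% (3.17% and 1.46% at the finer resolution of 1.5), and in interferon response-like cells (c9) in 2.46% and 2.02%. In central-like cells it was detected in 0.60% of CD25KO and 0.46% of CD25WT cells, which with the B cells bears on the level that free RNA could give. B cells had 0 of 26 in CD25KO, which allows a share of up to 11.5%, and 1 of 23 (4.35%) in CD25WT, at median depths of 3990.5 and 4606 UMIs. Among cells of unnamed clusters the share was lower in CD25KO, 1.22% against 3.05% in CD25WT. With 5 or more Mki67 UMIs there were 0 of 1969 such cells in CD25KO and 5 of 1804 in CD25WT. A small cluster led by Tmem176b (c12) had a Mki67 UMI in 0 of 14 CD25KO cells and in 14 of 59 CD25WT cells (23.7%). With the shares of each cluster in CD25KO weighted by the cluster sizes of CD25WT, 2.48% of cells would be Mki67-positive, and with those of CD25WT weighted by the cluster sizes of CD25KO, 7.06%.

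**Figure D4:**
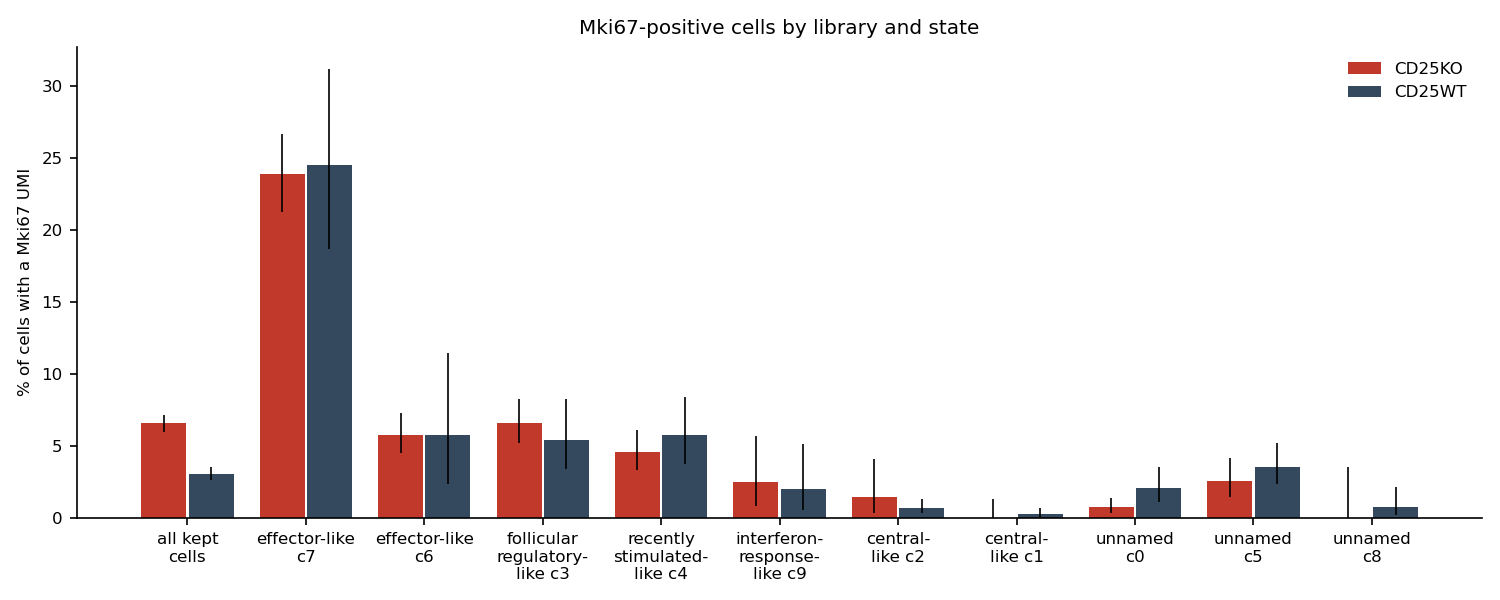
Percentage of cells with a Mki67 UMI over all kept cells and in clusters c0 to c9, CD25KO beside CD25WT, with 95% Clopper-Pearson intervals. The remaining clusters are not shown. The intervals of the libraries overlap in c7 (23.9% in CD25KO, 24.5% in CD25WT) and c6 (5.75% and 5.74%).

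Member levels were compared within c7, where both libraries had cells enough to look at Mki67-positive cells alone (238 in CD25KO, 48 in CD25WT). There the S phase genes had a median log2 ratio of -0.05 (range -0.57 to 0.53), the 18 G2/M genes other than Mki67 0.19 (-0.26 to 0.64) and the abundant genes 0.06, beside 0.01 for 8493 genes. Summed, S phase genes stood at 3170 CPM in CD25KO and 3017 CPM in CD25WT (log2 0.07, 0.00 to 0.14), and G2/M genes at 4740 and 4126 CPM (log2 0.20, 0.14 to 0.26). Ccnb1, the gene with the widest gap over all Mki67-positive cells, had 140 CPM in CD25KO and 110 CPM in CD25WT of c7 (log2 0.35, -0.01 to 0.73). Mcm6 had 126 and 174 CPM (log2 -0.46) and Mcm3 112 and 166 CPM (log2 -0.57). The G2/M difference was thus smaller within this cluster than over all Mki67-positive cells, and the lower Mcm3 and Mcm6 levels were seen in both settings. In the follicular regulatory-like cells of c3, with 73 CD25KO and 20 CD25WT Mki67-positive cells, S phase genes summed to 1601 CPM in CD25KO and 2319 CPM in CD25WT and G2/M genes to 1753 and 1068 CPM, but a single CD25WT cell gave 46.8% of those UMIs in CD25WT.

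**Figure D5:**
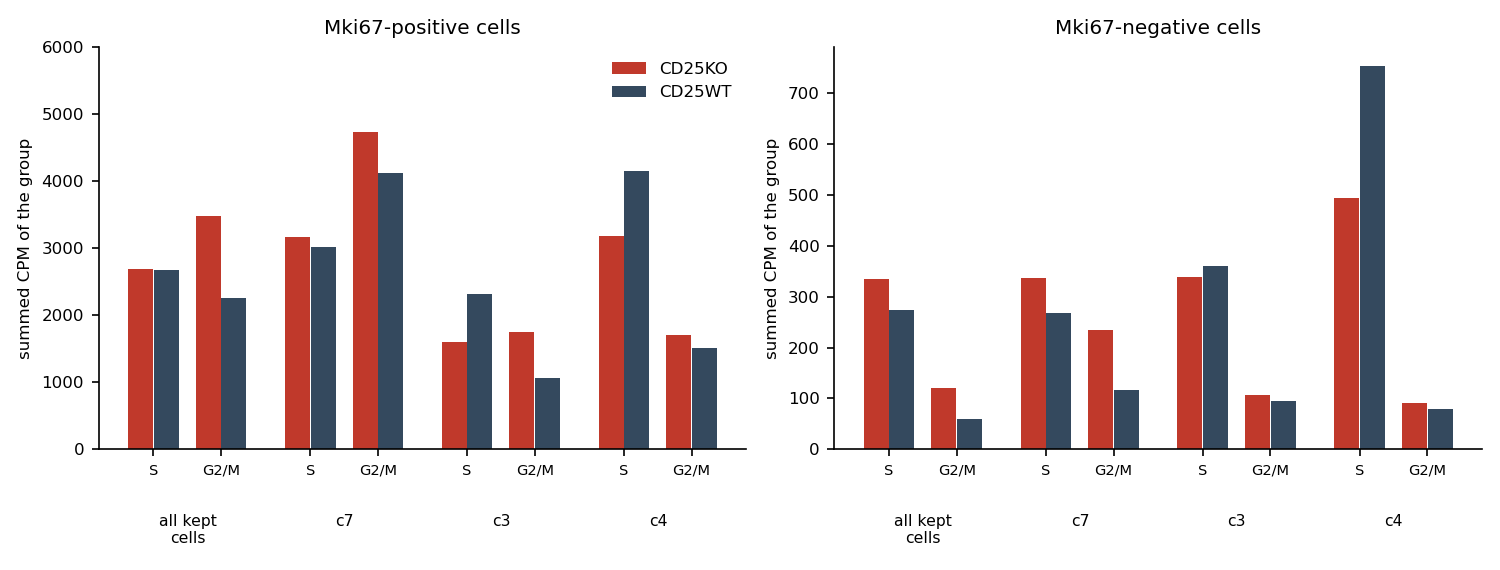
Summed CPM of the S phase genes and of the G2/M genes without Mki67, in Mki67-positive and Mki67-negative cells of CD25KO and CD25WT, for all kept cells and for clusters c7, c3 and c4. In c7 the Mki67-positive sums of the G2/M genes, 4740 CPM in CD25KO and 4126 CPM in CD25WT, lie closer than over all cells, where they were 3485 and 2258 CPM.

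Weighting each cluster of CD25KO by the UMIs that cluster holds in CD25WT asked how far the cluster sizes carry the ratios over all cells. The median of the S phase genes was then -0.25, with 1 of 15 genes above 0 and none past 1.5-fold higher. The median of the G2/M genes was 0.44, with 4 of 14 past 1.5-fold higher beside 3.01% of all genes, and Cenpf stood at a log2 ratio of 1.67. That value rested on 1 cell: c2 had 3 Mki67-positive cells in CD25KO, and 1 of them held 99.7% of their S and G2/M UMIs. Without it the median of the G2/M genes was -0.07, with none of 13 past 1.5-fold higher, Cenpf was at 0.22, and the S phase median stayed at -0.25. The median of all genes was 0.07 in both cases. The cell left out was chosen by its S and G2/M UMIs, and no CD25WT cell was left out. Single cells led in CD25WT as well. The richest gave 95.3% of the S and G2/M UMIs of Mki67-positive CD25WT cells in c9 and 81.9% in c0. What leaving those out would do was not tested. Cluster sizes, genotype and the CD25 gate cannot be told apart in these libraries.

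Outside Mki67-positive cells, the 8659 genes at 5 CPM or more had a median log2 ratio of 0.22, and 12.2% of them were past 1.5-fold higher in CD25KO and 1.8% past 1.5-fold lower. The S phase sum was 334 CPM in CD25KO and 273 CPM in CD25WT (log2 0.29), and the G2/M sum 120 and 58.9 CPM (log2 1.03). Of the S phase genes, 12 of 16 reached that level. Of these, 3 of 12 passed 1.5-fold upwards, namely Pclaf, Tyms and Mcm6. Pclaf had 10.2 CPM in CD25KO and 4.35 CPM in CD25WT (log2 1.22, 0.94 to 1.52), and Tyms 22.2 and 12.8 CPM (log2 0.79, 0.61 to 0.97). Pclaf and Gins2 reached 5 CPM only through CD25KO. Hells, with a log2 ratio of 0.44, stayed under 1.5-fold. Except for Mcm6, the helicase genes were near equal, from a log2 ratio of -0.15 (12.0 CPM in CD25KO, 13.3 CPM in CD25WT) for Mcm2 to 0.11 for Mcm7. Mcm6 had 72.5 CPM in CD25KO and 48.1 CPM in CD25WT (log2 0.59, 0.50 to 0.68). Only 3 of 19 G2/M genes reached 5 CPM here, so the group is given by values alone. Top2a had 22.9 CPM in CD25KO and 8.31 CPM in CD25WT, Cenpa 50.5 and 31.2 CPM, and Ube2c 10.2 and 2.94 CPM. Ube2c reached 5 CPM only through CD25KO. Below that level some genes were higher in CD25KO and others nearly equal. Birc5 had 6.90 CPM in CD25KO and 2.19 CPM in CD25WT, Ccnb2 5.39 and 1.44 CPM, Cenpf 2.97 and 0.960 CPM, and Ccnb1 1.86 and 0.870 CPM. Plk1 stood at 0.621 CPM in CD25KO and 0.660 CPM in CD25WT, Cdc20 at 2.61 and 2.28 CPM, and Aurka at 1.18 and 1.05 CPM. Hmgb2 (513 CPM in CD25KO, 279 CPM in CD25WT) and H2afz (1087 and 695 CPM) remained higher, whereas Tuba1b was lower, at 136 and 153 CPM (log2 -0.17).

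Within single states the ratio of Mcm6 outside Mki67-positive cells was smaller or below 0. Mcm6 stood at 80.1 CPM in CD25KO and 68.8 CPM in CD25WT among effector-like cells (log2 0.22, -0.08 to 0.53) and at 90.1 and 93.5 CPM among follicular regulatory-like cells (log2 -0.05). Recently stimulated-like cells had 105 CPM in CD25KO and 129 CPM in CD25WT (log2 -0.29, -0.48 to -0.11). Central-like cells had the lowest level, 21.4 and 28.9 CPM (log2 -0.43, -0.91 to 0.01), and only the small interferon response-like state had a ratio near that of all Mki67-negative cells (log2 0.52, -0.13 to 1.16). Hmgb2 outside Mki67-positive cells likewise stood at 199 CPM in CD25KO and 188 CPM in CD25WT among central-like cells and at 842 and 696 CPM among effector-like cells. Top2a also had a smaller ratio in each of these states than over all Mki67-negative cells (log2 1.46, 1.26 to 1.67), but it stayed above 0. Its ratio ran from a log2 of 0.50 in recently stimulated-like cells to 0.84 (-0.15 to 1.73) in central-like cells. The latter had 6.19 CPM in CD25KO and 3.45 CPM in CD25WT. In c4, the main cluster of recently stimulated-like cells, the S phase genes of Mki67-negative cells were lower in CD25KO, with a sum of 494 CPM against 753 CPM in CD25WT (log2 -0.61) and a median of -0.78 over 13 genes, beside 0.12 for all genes. That state was singled out after its values were seen, and its cells change with the clustering. At the finer resolution of 1.5 its largest cluster held 670 CD25KO and 213 CD25WT cells, against 904 and 435 in c4.

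Detected genes were also counted per cell, with each cell thinned to 2000 UMIs and Mki67 left out, to see how far the groups mark different cells. Cells with at least 3 S phase genes and fewer than 3 G2/M genes made up 2.33% of CD25KO and 1.86% of CD25WT cells. Cells with at least 3 of both made up 1.60% and 0.681%, and cells with at least 3 G2/M genes alone 1.17% and 0.332%. Within c7 the S-only share was 4.05% in CD25KO and 4.08% in CD25WT and the share with both was 8.70% and 8.67%, while the G2/M-only share was 5.47% (4.13% to 7.07%) in CD25KO and 2.55% (0.833% to 5.85%, 5 cells) in CD25WT. In c6 the S-only share was 2.47% (1.62% to 3.59%) in CD25KO and 7.63% (3.55% to 14.0%, 9 cells) in CD25WT. Among recently stimulated-like cells the S-only share was 4.89% (3.58% to 6.51%) in CD25KO and 10.4% (7.85% to 13.5%) in CD25WT. That state was singled out after its values were seen, and at a finer clustering (resolution 1.5) its shares were 3.15% in CD25KO and 4.01% in CD25WT. These counts are ranges of detected genes and not phase calls.

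Further genes of the same phases, from lists that hold none of the 40, were counted in the same way. Of 36 further S phase genes, 30 reached 5 CPM over all kept cells, 6 passed 1.5-fold upwards in CD25KO and none downwards, with a median log2 ratio of 0.36. Of 49 further G2/M genes, 36 reached it, 24 were higher and none lower, with a median of 1.11. Among all genes 12% passed upwards and 1.96% downwards, with a median of 0.21. Of the 24 further G2/M genes, 7 reached 5 CPM only through CD25KO, Ckap2l, Hmmr and Knl1 among them, and 17 were at 5 CPM or more in CD25WT as well. Of the 6 higher S phase genes, 2 reached 5 CPM only through CD25KO and 4 were at that level in CD25WT as well. Ckap2l, a spindle protein, had 8.96 CPM in CD25KO and 1.92 CPM in CD25WT (log2 2.22), and Hmmr, which organises spindle poles, 18.9 and 4.35 CPM (log2 2.12). Kif11, the motor that separates spindle poles, had a log2 ratio of 1.83, and Knl1, a kinetochore scaffold, 1.76. In the S phase list Clspn, a replication checkpoint adaptor, had 15.8 CPM in CD25KO and 8.04 CPM in CD25WT (log2 0.97), and Uhrf1, which helps copy DNA methylation, 11.8 and 6.18 CPM (log2 0.93). Inside Mki67-positive cells none of the 36 further S phase genes passed 1.5-fold upwards and 8 passed it downwards (median -0.29), while 19 of the 49 further G2/M genes were higher and none lower (median 0.51), beside 7.84% of all genes higher and 5.78% lower there. Of the 19 higher G2/M genes there, 1 reached 5 CPM only through CD25KO. Of 26 cell cycle regulators, mostly of G1 but with Foxm1, Mybl2 and Lin54 in the list, 19 reached 5 CPM over all kept cells. Of these, 5 were higher, beside 12% of all genes, and 1 of the 5 reached 5 CPM only through CD25KO. The median of the 19 regulators was 0.15, under the 0.21 of all genes. Among them Cdkn2c, an inhibitor of Cdk4 and Cdk6, had 29.1 CPM in CD25KO and 11.9 CPM in CD25WT (log2 1.30), and Cdk6 61.5 and 36.5 CPM (log2 0.75).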

How the data were processed

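Raw UMI counts for every gene in every barcode were deposited for both libraries, without scaling. The file headers name Cell Ranger 6.0.0, and the submitters' processing notes name the mm10 build. The counting annotation, and which exons of Il2ra are deleted, are not given in the sources used here. The 40 members, the other gene lists and the markers were chosen with earlier results of these data known.

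Barcodes under 500 genes or over 10% mitochondrial UMIs were dropped. UMIs were summed per library and scaled to 1000000 (CPM). Ratios are CD25KO over CD25WT with the exact conditional interval, levels with exact Poisson intervals and shares with Clopper-Pearson intervals, and cells were not treated as replicates. Counts of genes used a mean of at least 5 CPM and a ratio of 1.5-fold. Depth was 4150 (CD25KO) and 5229 (CD25WT) UMIs per cell at the median, and shares were repeated with cells thinned to 2000 UMIs, leaving out 375 CD25KO and 90 CD25WT shallower cells. Mki67-negative cells were clustered with Scanpy 1.11.5 and leidenalg 0.10.2 at resolution 1 (2000 variable genes, 30 components, 15 neighbours), without cell cycle genes, Il2ra, receptor segments, ribosomal, mitochondrial, haemoglobin and sex-linked genes. A cluster was named where 3 or more markers were detected, their mean log2 fold was 0.25 or more, and 2 stood in its top 10 or 3 in its top 20 genes, a rule set after seeing the data. Scrublet called 0 CD25KO and 1 CD25WT doublets, which was taken as a failure of the caller, so doublets remain. As an alternative the 419 CD25KO and 324 CD25WT cells of highest score were removed. TMM factors came from edgeR 4.0.16 in R 4.3.3, used for scaling only. The ratio and its interval were tested on simulated counts with known fold changes.

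All 40 members may be named. Full values go to Mki67, the S phase and G2/M members with the most UMIs, the abundant genes and the 3 highest and 3 lowest ratios, and up to 4 genes from each other list by size of ratio. Members whose function carries a comparison were given values as well, chosen after their values were seen. Alternatives covered scaling, cell filters, thinning, doublets, other lineages, shared barcodes, the Mki67 threshold, the clustering, and weighting by state or by Mki67-positive share.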

Additional observations from a re-analysis of the deposited data

How the results depend on the processing

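No paired analysis was possible because each group has 1 library, and leaving out a replicate was not possible for the same reason. Over all kept cells the median of the S phase genes (0.54) was 0.31 with TMM, 0.32 with median-of-ratios factors, 0.35 without ribosomal and mitochondrial genes, 0.37 with equal weight per cell, 0.36 thinned, 0.10 at the Mki67-positive share of CD25WT and -0.25 at its cluster sizes. The 7 S phase genes at least 1.5-fold higher became 4 thinned, 1 at the Mki67-positive share and 0 at the cluster sizes, and 4 were at least 2-fold higher. The G2/M median (1.76) was 1.54 with TMM and with median-of-ratios factors, 1.40 with equal weight per cell, 1.51 thinned, 2.17 with the stricter cell filter (1000 genes, 5% mitochondrial), 0.70 at the Mki67-positive share and 0.44 at the cluster sizes, where the 17 higher genes became 4. Without 1 CD25KO cell of c2, and with no CD25WT cell left out, the G2/M median at the cluster sizes was -0.07, with 0 of 13 genes at least 1.5-fold higher. The single ratios that follow include that CD25KO cell. At the cluster sizes of CD25WT the ratio was below 0 for Mcm3 (-0.33), Mcm4 (-0.17), Mcm5 (-0.32), Mcm6 (-0.25), Pcna (-0.20), Gins2 (-0.47), Hells (-0.35), Tuba1b (-0.11), Tyms (-0.15), Rrm1 (-0.050), Rrm2 (-0.46), Ccne2 (-0.085), Tk1 (-0.34), Pclaf (-0.21), Hist1h1b (-0.12), Cdk1 (-0.068) and Stmn1 (-0.17). Below 0 at those sizes as well were Mcm2 (-0.39), already at -0.02 over all kept cells, and Bub1 (-0.36), which lies under 5 CPM. TMM moved the median of all genes to -0.01, against 0.21. In Mki67-negative cells the S phase median (0.20) was -0.047 with TMM. The median of the 3 G2/M genes (1.46) was 1.22 with TMM, 0.91 with no cell filter and 1.92 with the stricter cell filter. In Mki67-negative cells with fewer than 3 other members it was 1.20, and Pclaf was at -0.23. Of the 3 genes behind the 1.46, Ube2c reached 5 CPM only through CD25KO. The Mki67-positive share of CD25KO (6.54%) was 3.12% at 2 or more Mki67 UMIs, 3.28% thinned and 9.05% with the stricter filter, and that of CD25WT (3.03%) 1.47% and 1.30% at 2 or more UMIs and thinned. The CD25KO share at CD25WT cluster sizes (2.48%) was 3.78% at resolution 0.5, 3.27% with cell cycle genes kept in the clustering, 3.35% with states from cells of few members, 1.25% thinned and 1.001% at 2 or more UMIs. The cause of each shift was not tested.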

Other observations

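The replication histone genes outside the 40 were not uniform. Of 10 listed, 9 reached 5 CPM over all kept cells, 6 passed 1.5-fold upwards in CD25KO and 1 downwards, beside 12% and 1.96% of all genes, and 2 of the 6 reached 5 CPM only through CD25KO. Hist1h3c had 8.87 CPM in CD25KO and 2.74 CPM in CD25WT (log2 1.70), Hist2h2ac 20.6 and 10.6 CPM (log2 0.96), and Hist1h2ae 86.6 and 44.9 CPM (log2 0.95). Hist1h2ap went the other way, with 41.5 CPM in CD25KO and 82.5 CPM in CD25WT (log2 -0.99). Its gap was wider within each stratum: 270 and 1154 CPM in Mki67-positive cells (log2 -2.09), 3.10 and 15.2 CPM in Mki67-negative cells (log2 -2.29), and 397 CPM in CD25KO and 2048 CPM in CD25WT in the Mki67-positive cells of c7 (log2 -2.37). Hist1h2ap belongs to a family of near-identical H2A genes, so the assignment of its reads is uncertain, and its part in these values was not tested.

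Cdkn2c was higher in CD25KO also outside Mki67-positive cells, with 19.4 CPM in CD25KO and 8.49 CPM in CD25WT (log2 1.19). Mki67-negative cells with at least 10 of the other members detected numbered 52 in CD25KO (0.80%) and 48 in CD25WT (0.81%). The median depth of all Mki67-negative cells was 4030 UMIs in CD25KO and 5176 in CD25WT. With cells thinned to 2000 UMIs, Mki67-negative cells with at least 3 S phase and 3 G2/M genes made up 0.676% of CD25KO and 0.353% of CD25WT cells, and those with at least 3 G2/M genes alone 0.660% and 0.185%.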
